A study of Mus musculus with 36 samples.

Results

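Interferon-stimulated genes are the genes that cells switch on when interferons bind their receptors. A set of 36 such genes, given by symbol, was followed here in RNA from whole mouse kidneys. All 36 symbols matched 1 gene each among the 53715 genes counted. Of these, 35 had enough reads for the test across genes, as did 15637 genes in all, and only Oas3 fell below the filter on low counts.

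The study measured mRNA in 36 kidneys, 9 from separate animals in each of 4 groups. All mice carried floxed alleles of Bmal1 (gene symbol Arntl), a core activator of the circadian clock. The cKOt mice were Bmal1 lox/lox /Pax8-rtTA/LC1, in which the Pax8 promoter drives a doxycycline-dependent activator, and with it the Cre recombinase, in the renal tubule. Their littermate controls were Bmal1lox/lox mice without these transgenes, and both genotypes drank DOX at 2 mg/ml for 2 weeks from 8 weeks of age. After 1 further week they were injected intraperitoneally every day for 5 days, either with streptozotocin (STZ, 50 mg/kg), which destroys insulin-producing cells, or with PBS. All tissue was collected at Zeitgeber time 9, 8 weeks once the injections had ended, so each value belongs to a single time of day. The control groups are named PBS-control and STZ-control, those with the deletion PBS-cKOt and STZ-cKOt. Whole kidney holds every cell type of the organ, whereas the deletion was directed to the tubule.

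Type I and type III interferons act through JAK kinases on a complex that holds STAT2 and IRF9 and binds the interferon-stimulated response element, a pair of GAAA half-sites. Type II interferon acts through the gamma-activated site. The products of the target genes sense foreign RNA, block viral translation and release, tag proteins with ISG15 and load peptides for display to T cells. Tubule cells, endothelium and resident leukocytes of the kidney can all respond.

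The promoter windows of RefSeq (GRCm38.p6, 250 bases before to 50 after each annotated start) were found for 29 of the 36 genes. The response element pair, searched on both strands as GAAA, any 2 bases and again GAAA, was present in 15 of these 29 (51.7%), and in 3.99% of all 27025 genes with a window. The gamma-activated site, searched as TTCNNNGAA on both strands with overlaps allowed, was present in 7 of 29 (24.1%) against 9.55% of all genes. The E-box CACGTG, the sequence that BMAL1 and CLOCK bind, was present in 1 of 29, Trim25 (3.45%), against 8.09% of all genes. The stretches below come from genes with marked differences that also had a match before the annotated start. Irf7, Irf9 and Oasl2, which rose with STZ in control mice, had no match to any of these motifs. They run 5′ to 3′ on the gene's own strand, end before the annotated start, and have the matched letters in capitals, which are the pair of GAAA half-sites or its reverse complement except in Irf1, where they are TTCNNNGAA.
Ifit1 (chr19:34640745-34640853, plus strand): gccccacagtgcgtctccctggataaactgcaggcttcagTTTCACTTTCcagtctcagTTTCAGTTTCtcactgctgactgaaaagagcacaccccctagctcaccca
Ifit3 (chr19:34583333-34583456, plus strand): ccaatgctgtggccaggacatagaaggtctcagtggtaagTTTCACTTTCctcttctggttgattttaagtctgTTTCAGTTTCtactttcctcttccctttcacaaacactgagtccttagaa
Bst2 (chr8:71537547-71537642, minus strand): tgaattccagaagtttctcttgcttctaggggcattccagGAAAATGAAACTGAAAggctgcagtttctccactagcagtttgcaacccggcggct
Isg15 (chr4:156200835-156200936, minus strand): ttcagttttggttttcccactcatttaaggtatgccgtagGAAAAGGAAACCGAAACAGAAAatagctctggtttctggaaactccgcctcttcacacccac
Stat2 (chr10:128270248-128270325, plus strand): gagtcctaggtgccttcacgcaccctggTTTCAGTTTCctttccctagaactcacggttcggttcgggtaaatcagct
Cxcl10 (chr5:92349053-92349139, minus strand): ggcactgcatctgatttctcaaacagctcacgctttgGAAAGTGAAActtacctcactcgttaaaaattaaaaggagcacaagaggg
Gbp7 (chr3:142530243-142530332, plus strand): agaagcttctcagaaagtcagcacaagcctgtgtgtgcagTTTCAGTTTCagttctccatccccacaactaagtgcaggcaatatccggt
Irf1 (chr11:53769884-53769972, plus strand): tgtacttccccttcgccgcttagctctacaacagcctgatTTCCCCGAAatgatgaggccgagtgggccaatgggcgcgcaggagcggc
Ifit3b carried the same 124 bases as Ifit3 at chr19:34607729-34607852. Such a match is a description of letters and does not show that a factor binds there. The pair was found in 9 of the 16 matched genes called higher with STZ in control mice by edgeR and in 6 of the 13 others, 1 of which is Oas3, tested apart.

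Between 16.9 M and 22.3 M reads were assigned to genes in each library (median 20.1 M). Values are given in CPM, reads of a gene relative to all assigned reads and scaled between libraries, and differences are on the log2 scale with their standard errors. Gene positions are those of GENCODE M21 on GRCm38. Adjusted p-values come from edgeR's quasi-likelihood test over all 4 groups, adjusted by Benjamini-Hochberg over the 15637 genes, with a threshold of 0.05. Arntl, the targeted gene, stood at 12.9 to 17.4 CPM in the cKOt libraries and at 1.09 to 2.64 CPM in the control libraries other than 1. The library labelled STZ-control 2 had 13.4 CPM and so went against its label, although a count over the whole gene does not itself show the deletion. Another 4 libraries, STZ-control 7 and 8 and PBS-cKOt 1 and 3, stood apart from the rest of their groups on the second principal component. The counts of genes in the set are therefore also given without these libraries, and those of other gene lists where leaving them out moved a count by over 1.5 times.

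Most of the set was higher with STZ in control mice. Of the 35 genes tested, 23 were higher and 0 lower in STZ-control than in PBS-control kidneys, while 6.34% of all tested genes were higher and 5.93% lower. Bst2, Ifit1, Irf7 and Isg15, for example, reached 1.91 to 2.22 times their level in PBS-control kidneys. The median difference was 0.46 over the 35 genes and 0.005 over all tested genes. In 11 of the genes all 9 STZ-control kidneys lay above all 9 PBS-control kidneys, which was true of 0.742% of all tested genes. These were Bst2, Cxcl10, Dhx58, Ifit1, Ifit3, Ifit3b, Irf7, Irf9, Oasl2, Stat2 and Usp18. The count of higher genes stayed at 23 with STZ-control 2 left out, and at 23 without the 4 libraries apart. The genes without overlap were 11 and 15 in these cases. In bulk tissue, more cells of a type and more RNA per cell cannot be told apart.

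The set also rose with STZ in cKOt mice. Here 21 of 35 genes were higher and 0 lower, against 6.0% and 5.63% of all tested genes, and the median difference was 0.39 against -0.0015. Ifit2 and Ifit1 rose most firmly, and only Cxcl10 had no overlap between the 9 STZ-cKOt and the 9 PBS-cKOt kidneys (0.454% of all tested genes). The 2 STZ comparisons share no library. In both, 16 genes were higher, which is 69.6% of the 23 and 76.2% of the 21. Of all tested genes 373 were higher in both, 37.6% of the 992 and 39.7% of the 939. The 16 were Bst2, Cxcl10, Gbp3, Ifit1, Ifit2, Ifit3, Ifit3b, Irf7, Oas1a, Oasl1, Oasl2, Parp14, Stat2, Tap1, Usp18 and Zbp1. Without the 4 libraries apart 22 genes were higher in cKOt mice, 4 had no overlap (Bst2, Cxcl10, Ifit1 and Ifit3b) and 19 were higher in both genotypes. Without STZ-control 2, which is in neither group of cKOt mice, the 16 shared genes were the same.

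Part of the set was lower in diabetic kidneys with Bmal1 deleted in the tubule. In STZ-cKOt against STZ-control kidneys 18 genes were lower and 2 higher, Gbp7 and Cmpk2, while 10.1% of all tested genes were lower and 9.52% higher. The median difference was -0.27 against -0.0083. Cxcl10 fell most firmly and was the only one without overlap (1.64% of all tested genes were lower without overlap). In all, 20 of 35 genes were called, against 19.6% of all tested genes. None was higher without overlap (1.86% of all tested genes). The count of lower genes was 14 when STZ-control 2, the library that went against its label, was left out, and 15 without the 4 libraries apart, with Gbp7 alone higher. In both cases Cxcl10 was still without overlap.

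In mice without diabetes the deletion was followed by fewer differences. In PBS-cKOt against PBS-control kidneys 7 genes were lower and 0 higher, Irf1, Stat2, Zbp1, Xaf1, Gbp2, Psmb8 and Cxcl10. These 7 of 35 lie near the 23.4% of all tested genes called in either direction, of which 12.5% were lower and 10.9% higher. No gene of the set had groups without overlap, whereas 2.4% of all tested genes were higher and 2.72% lower without overlap. The median difference was -0.11 against 0.0024. The 2 genotype comparisons also share no library, and 5 genes were lower in both, Cxcl10, Irf1, Psmb8, Stat2 and Zbp1. These are 71.4% of the 7 and 27.8% of the 18, while the 909 tested genes lower in both were 46.5% of the 1954 and 57.8% of the 1573. Without the 4 libraries apart 6 genes were lower and 1, Gbp7, was higher, and 3 genes were lower in both comparisons (Cxcl10, Psmb8 and Zbp1). Without STZ-control 2 the genes lower in both were 4 (Cxcl10, Irf1, Psmb8 and Stat2). Neither setting gave a gene without overlap in PBS mice.

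**Figure D1:**
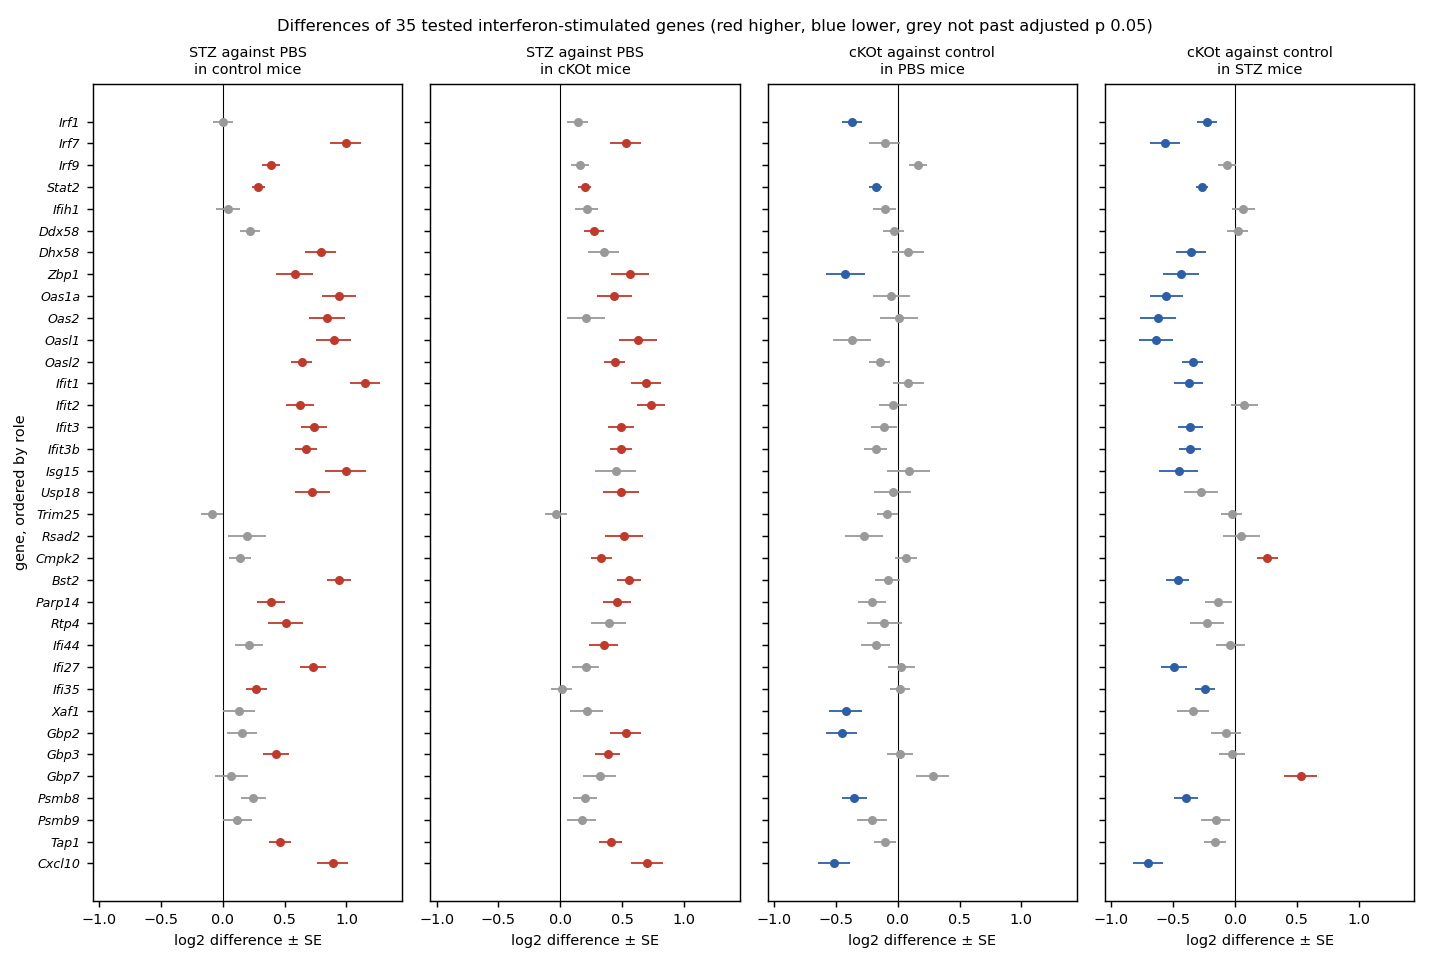
Log2 difference (horizontal axis) of each of the 35 tested genes (vertical axis, by role) in the 4 comparisons, with points for the estimate, bars for 1 SE and colour for genes past an adjusted p of 0.05. Red points fill both STZ panels (23 and 21 genes), 18 blue points lie in the panel of cKOt against control in STZ mice, and 7 in that of PBS mice.

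Among the transcription factors, Irf7, which drives the amplification of interferon production, moved most. Irf7 (chr7:141262706-141266481) ranged from 8.65 to 13.9 CPM (median 10.9) in PBS-control, from 14.99 to 32.6 (median 20.8) in STZ-control, from 6.76 to 13.4 (median 9.99) in PBS-cKOt and from 11.9 to 19.1 (median 14.96) in STZ-cKOt kidneys. All STZ-control kidneys lay above all PBS-control kidneys, whereas STZ-cKOt kidneys overlapped both STZ-control and PBS-cKOt kidneys. The difference with STZ was 0.99 ± 0.12 in control mice (adjusted p = 4.68e-07) and 0.53 ± 0.12 in cKOt mice (adjusted p = 0.00378). In STZ mice the difference of cKOt from control kidneys was -0.57 ± 0.12 (adjusted p = 5.36e-04).

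Stat2 (chr10:128270559-128292849), a subunit of the complex that binds the response element, varied little among kidneys of a group, with 21.9 ± 1.73 CPM (SD, n = 9) in PBS-control, 19.4 ± 1.59 in PBS-cKOt, 26.8 ± 1.09 in STZ-control and 22.2 ± 1.55 in STZ-cKOt kidneys. Its small differences passed the test in all 4 comparisons, higher with STZ (0.29 ± 0.052 and 0.20 ± 0.052) and lower in cKOt (-0.18 ± 0.052 in PBS and -0.27 ± 0.052 in STZ mice). The call in PBS mice was lost without the 4 libraries apart (adjusted p = 0.0734) and without a filter on low counts (adjusted p = 0.0667). Its DNA-binding partner Irf9 rose with STZ in control mice by 0.39 ± 0.073 (adjusted p = 3.52e-04), and the value in cKOt mice was 0.16 ± 0.072 (adjusted p = 0.146).

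Irf1, a factor that responds strongly to type II interferon, had another pattern. It ranged from 15.2 to 26.1 CPM (median 16.8) in PBS-control, from 15.6 to 20.6 (median 17.5) in STZ-control, from 11.4 to 15.3 (median 13.5) in PBS-cKOt and from 12.7 to 16.7 (median 15.1) in STZ-cKOt kidneys. It was lower in cKOt, with a difference of -0.37 ± 0.082 in PBS mice (adjusted p = 8.23e-04) and -0.23 ± 0.081 in STZ mice (adjusted p = 0.0448). The second of these calls was lost when any 1 of 13 libraries was left out (PBS-control 3 or 4, STZ-control 1, 5, 6, 7 or 8, STZ-cKOt 1, 2, 3, 5, 6 or 9), with adjusted p of 0.0557 to 0.0995. Irf1 also lost it without a filter on low counts (adjusted p = 0.106) and without the 4 libraries apart (adjusted p = 0.103). The same held with 2 surrogate variables (adjusted p = 0.108) and with replicate number as a block (adjusted p = 0.0568). With STZ the difference of Irf1 was -0.0016 ± 0.081 in control mice (95% interval -0.16 to 0.16).

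Of the 4 sensors of foreign nucleic acid, Dhx58 and Zbp1 rose with STZ in control mice. Dhx58, a helicase that tunes the other RNA sensors, ranged from 1.42 to 2.34 CPM (median 1.96) in PBS-control kidneys and from 2.59 to 4.56 (median 3.11) in STZ-control kidneys, with no overlap. Its difference was 0.79 ± 0.12 (adjusted p = 2.78e-05). In STZ mice Dhx58 was lower in cKOt (-0.36 ± 0.12, adjusted p = 0.031), a call lost without any 1 of 9 libraries (STZ-control 2, 3 or 4, STZ-cKOt 1, 2, 3, 4, 5 or 9), with adjusted p up to 0.0840. It was also lost without a filter on low counts (adjusted p = 0.0879) and with only the 2 groups compared (adjusted p = 0.0556). With replicate number as a block the adjusted p was 0.0502. Zbp1, which binds Z-form nucleic acid, rose with STZ by 0.58 ± 0.15 in control and 0.57 ± 0.15 in cKOt mice, although 1 STZ-control kidney, at 1.499 CPM, lay below every PBS-control kidney. Zbp1 was lower in cKOt in both PBS mice (-0.42 ± 0.16, adjusted p = 0.0446) and STZ mice (-0.44 ± 0.14, adjusted p = 0.0283). The call in PBS mice was lost without any 1 of 14 libraries (PBS-control 2, 5, 6, 8 or 9, STZ-control 8, PBS-cKOt 2, 4, 5, 6, 7, 8 or 9, STZ-cKOt 7), with adjusted p up to 0.0942. That in STZ mice was lost without the library labelled STZ-control 2, STZ-control 3 or 6, or STZ-cKOt 3 or 8, with adjusted p up to 0.0680. Both Zbp1 calls were lost without a filter on low counts (adjusted p = 0.104 in PBS and 0.0659 in STZ mice). With 2 surrogate variables both were lost too (adjusted p = 0.0931 and 0.0612). Replicate number as a block removed the call in PBS mice (adjusted p = 0.0520), and using only the 2 groups that in STZ mice (adjusted p = 0.0685). The 2 sensors of double-stranded RNA named Ddx58 (RIG-I) and Ifih1 were more abundant, at 34.97 and 22.01 CPM in PBS-control kidneys. Ddx58 was called in cKOt mice alone (0.27 ± 0.083, adjusted p = 0.0239; 0.22 ± 0.083, adjusted p = 0.074, in control mice), and the call was lost without PBS-cKOt 3, PBS-cKOt 6 or STZ-cKOt 1, with adjusted p of 0.0507 to 0.0570. Ifih1 passed the test in no comparison, with a 95% interval of -0.14 to 0.23 for STZ in control mice and a difference of 0.22 ± 0.094 in cKOt mice (adjusted p = 0.135).

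The oligoadenylate synthetases, whose products activate RNase L, all rose with STZ in control mice. Oas1a went from 2.19 ± 0.418 CPM to 4.201 ± 1.12 CPM, a difference of 0.94 ± 0.14 (adjusted p = 1.19e-05). Oas2 ranged from 2.58 to 4.38 CPM (median 3.37) in PBS-control, from 3.26 to 8.27 (median 5.78) in STZ-control, from 2.85 to 4.34 (median 3.44) in PBS-cKOt and from 2.76 to 5.41 (median 3.93) in STZ-cKOt kidneys. STZ-control kidneys were the most spread, and 7 of the 9 lay above the highest PBS-control kidney. Its difference with STZ was 0.84 ± 0.15 (adjusted p = 1.70e-04) in control mice and 0.21 ± 0.15 (adjusted p = 0.42) in cKOt mice.

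The related genes Oasl1 and Oasl2 rose in both genotypes. Oasl1 rose by 0.90 ± 0.14 and 0.63 ± 0.15, and Oasl2, at 11.6 ± 1.22 CPM in kidneys of PBS-control and 18.1 ± 2.58 in those of STZ-control mice, by 0.64 ± 0.085 and 0.44 ± 0.086. In STZ mice all 4 tested genes of the family were lower in cKOt kidneys, with differences of -0.64 ± 0.14 for Oasl1 (adjusted p = 7.66e-04), -0.62 ± 0.15 for Oas2 (adjusted p = 0.00169), -0.56 ± 0.14 for Oas1a (adjusted p = 0.00243) and -0.34 ± 0.084 for Oasl2 (adjusted p = 0.00255). The call for Oas1a with STZ in cKOt mice (0.44 ± 0.14, adjusted p = 0.0396) was lost without any 1 of 11 libraries (PBS-cKOt 2, 4, 6, 7, 8 or 9, STZ-cKOt 2, 3, 5, 6 or 7), with adjusted p up to 0.0885. It was also lost without a filter on low counts (adjusted p = 0.0760). Of the 50-base windows in the longest Oas1a transcript 57.6% also occur in Oas1g. Reads from these windows may have been left out as mapped to several places.

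Oas3 was near the detection limit. It had 48 reads over the 9 PBS-control and 109 over the 9 STZ-control libraries, and 40 and 55 over those of PBS-cKOt and STZ-cKOt. In CPM this was 0.278 ± 0.0771 CPM, 0.589 ± 0.206 CPM, 0.213 ± 0.109 CPM and 0.292 ± 0.144 CPM (SD, n = 9). An exact two-sided permutation test over libraries, adjusted over the 4 comparisons, gave p = 0.00230 for STZ in control mice and p = 0.00485 for cKOt against control in STZ mice. The same exact permutation test gave p = 0.209 for both other comparisons.

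The IFIT family, which binds foreign RNA and blocks its translation, had all 4 genes higher with STZ in both genotypes. Ifit1 (chr19:34640871-34650009) ranged from 3.67 to 6.62 CPM (median 5.29) in PBS-control, from 8.797 to 14.5 (median 10.5) in STZ-control, from 4.07 to 8.23 (median 4.58) in PBS-cKOt and from 7.304 to 10.5 (median 8.14) in STZ-cKOt kidneys. The lowest STZ-control kidney and the lowest STZ-cKOt kidney both stood above the highest PBS-control kidney, and the STZ groups overlapped each other. The difference of 1.15 ± 0.12 in control mice was the largest of the set in that comparison (adjusted p = 1.23e-08), and that in cKOt mice was 0.69 ± 0.12 (adjusted p = 1.37e-04). In STZ mice Ifit1 was lower in cKOt, with a difference of -0.38 ± 0.12 (adjusted p = 0.0183).

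Ifit2 (chr19:34550694-34576419) rose in both genotypes and passed the test in neither comparison of genotypes. It ranged from 14.4 to 20.97 CPM (median 17.9) in PBS-control, from 20.1 to 34.7 (median 27.7) in STZ-control, from 13.1 to 21.7 (median 18.4) in PBS-cKOt and from 19.8 to 35.8 (median 30.9) in STZ-cKOt kidneys. Its differences with STZ were 0.62 ± 0.11 (adjusted p = 2.36e-04) and 0.73 ± 0.11 (adjusted p = 1.75e-05), the lowest adjusted p of the set in cKOt mice. Between genotypes in STZ mice its difference was 0.074 ± 0.11 (95% interval -0.14 to 0.29).

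Ifit3 and Ifit3b, neighbours on chromosome 19 with the promoter stretch given above, moved together. Ifit3 averaged 17.4 ± 1.74 CPM, 29.1 ± 4.703, 16.2 ± 3.26 and 22.7 ± 3.71 in the order used for Ifit2. The difference with STZ in control mice was 0.74 ± 0.10 for Ifit3 and 0.68 ± 0.089 for Ifit3b, in cKOt mice 0.49 ± 0.10 and 0.49 ± 0.09. In STZ mice both were lower in cKOt, with differences of -0.36 ± 0.10 and -0.36 ± 0.087. They share 51.2% and 44.5% of their 50-base windows with each other. Reads from the shared windows may have been left out as mapped to several places, so both genes may be undercounted.

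**Figure D2:**
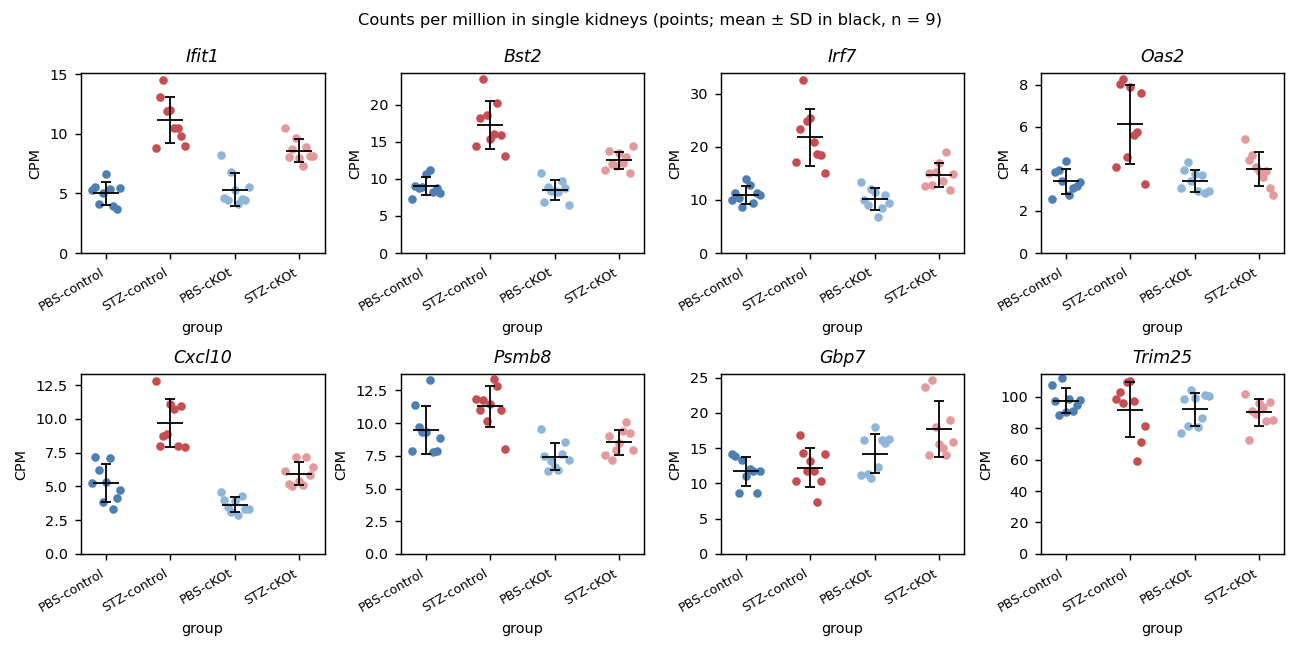
CPM (vertical axis, from 0) of 8 genes in single kidneys, by group (horizontal axis), with points for kidneys and black bars for mean ± SD (n = 9). For Ifit1, Bst2, Irf7 and Cxcl10 the STZ-control points lie above all PBS-control points, Gbp7 is highest in STZ-cKOt, and Trim25 overlaps among all groups.

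Isg15, a ubiquitin-like protein joined to other proteins, ranged from 1.64 to 3.02 CPM (median 2.13) in PBS-control and from 2.84 to 5.78 (median 4.23) in STZ-control kidneys. In PBS-cKOt it ranged from 1.798 to 4.28 CPM (median 2.12) and in STZ-cKOt from 2.03 to 4.08 (median 3.28). The upper end of PBS-cKOt was PBS-cKOt 1 alone, the next kidney being at 2.52 CPM. The difference with STZ was 0.99 ± 0.16 in control mice (adjusted p = 5.94e-05) and 0.45 ± 0.16 in cKOt mice (adjusted p = 0.0698). In cKOt mice the second passed the threshold without the 4 libraries apart. In STZ mice Isg15 was lower in cKOt, with a difference of -0.46 ± 0.16 (adjusted p = 0.0355), a call lost without any 1 of 8 libraries (STZ-control 2, 3, 7 or 8, STZ-cKOt 3, 4, 8 or 9), with adjusted p of 0.0514 to 0.0802. It was also lost without a filter on low counts (adjusted p = 0.0686) and without the 4 libraries apart (adjusted p = 0.0639). With 2 surrogate variables the adjusted p was 0.0760.

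Usp18, the protease that removes ISG15 and restrains the interferon receptor, rose in both genotypes, by 0.73 ± 0.14 in control and 0.49 ± 0.14 in cKOt mice (adjusted p = 0.0211; 0.0507 and 0.0510 without PBS-cKOt 2 or PBS-cKOt 6). Trim25, a ligase acting on ISG15 targets and RIG-I, was the most abundant gene of the set per length in PBS-control kidneys. It stood at 97.4 ± 7.83 CPM in PBS-control kidneys, at 91.6 ± 17.5 CPM in STZ-control kidneys and was called in none of the 4 comparisons.

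Of the other antiviral effectors, Bst2 (tetherin, which holds budding virus at the cell surface) had the lowest adjusted p of the set. Bst2 (chr8:71534255-71537456) ranged from 7.28 to 11.2 CPM (median 8.83) in PBS-control, from 13.1 to 23.4 (median 15.999) in STZ-control, from 6.53 to 10.9 (median 8.43) in PBS-cKOt and from 10.8 to 14.4 (median 12.1) in STZ-cKOt kidneys. All STZ-control kidneys lay above all PBS-control kidneys, and 8 of 9 STZ-cKOt kidneys lay above the highest PBS-cKOt kidney. The difference with STZ was 0.94 ± 0.10 (adjusted p = 8.11e-09) and 0.55 ± 0.10 (adjusted p = 1.51e-04), and in STZ mice cKOt was lower, with a difference of -0.47 ± 0.095 (adjusted p = 2.99e-04).

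Ifi27 averaged 23.96 ± 3.38 CPM in PBS-control kidneys against 39.8 ± 8.71 in STZ-control kidneys, and 24.5 ± 4.56 in PBS-cKOt against 28.2 ± 2.98 in STZ-cKOt kidneys. Its difference was 0.73 ± 0.11 in control mice (adjusted p = 1.14e-05) and 0.21 ± 0.11 in cKOt mice (adjusted p = 0.235), and in STZ mice it was lower in cKOt, with a difference of -0.49 ± 0.11 (adjusted p = 6.46e-04). Parp14, an ADP-ribosyltransferase, rose in both genotypes by 0.39 ± 0.11 and 0.46 ± 0.11. Rtp4 and Ifi35 rose in control mice by 0.51 ± 0.14 and 0.27 ± 0.082. The call for Ifi35 was lost without PBS-control 1 or STZ-control 7 (adjusted p of 0.0551 to 0.0608) and without the 4 libraries apart (adjusted p = 0.0609). In STZ mice Ifi35 was lower in cKOt (-0.24 ± 0.082, adjusted p = 0.0309), lost without any 1 of 7 libraries (STZ-control 2, 3 or 7, STZ-cKOt 1, 5, 8 or 9), with adjusted p up to 0.0933. This call was also lost without a filter on low counts (adjusted p = 0.0731) and with only the 2 groups compared (adjusted p = 0.0645). Without the 4 libraries apart the adjusted p was 0.0985.

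Rsad2 (viperin) and Cmpk2, a nucleotide kinase, are neighbours on chromosome 12 at chr12:26442746-26456452 and chr12:26469204-26479837. Both passed the test in cKOt and not in control mice, with 0.52 ± 0.15 (adjusted p = 0.0201) and 0.33 ± 0.086 (adjusted p = 0.00848) in cKOt, and 0.19 ± 0.15 and 0.14 ± 0.087 in control mice. Cmpk2 was higher in cKOt in STZ mice by 0.26 ± 0.086 (adjusted p = 0.0274), lost without STZ-control 7, STZ-control 8, STZ-cKOt 1 or STZ-cKOt 4 (adjusted p up to 0.0726). This call was also lost with only the 2 groups compared (adjusted p = 0.0524) and without the 4 libraries apart (adjusted p = 0.109). Ifi44 likewise was called in cKOt mice (0.35 ± 0.12, adjusted p = 0.0424) and lost without any 1 of 9 libraries (PBS-cKOt 2, 3, 6 or 7, STZ-cKOt 1, 3, 4, 5 or 7, adjusted p up to 0.0964). It was also lost without a filter on low counts (adjusted p = 0.0648) and without the 4 libraries apart (adjusted p = 0.0646). Xaf1, a factor that promotes cell death, was lower in cKOt in PBS mice (-0.42 ± 0.13, adjusted p = 0.0184). This call was lost without PBS-control 7 (adjusted p = 0.0618), with only the 2 groups compared (adjusted p = 0.0520) and with limma voom (adjusted p = 0.0727).

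The guanylate-binding proteins, GTPases that act on membranes of intracellular pathogens, did not move alike. Gbp3 rose with STZ by 0.43 ± 0.10 in control and 0.38 ± 0.10 in cKOt mice. Gbp2 averaged 13.3 ± 2.85 CPM in PBS-control, 9.75 ± 1.63 in PBS-cKOt, 14.8 ± 3.07 in STZ-control and 14.1 ± 2.54 in STZ-cKOt kidneys, so that PBS-cKOt was the low group. It was lower in cKOt in PBS mice (-0.45 ± 0.13, adjusted p = 0.00732) and higher with STZ in cKOt mice (0.53 ± 0.13, adjusted p = 0.00396). Gbp7 was higher in cKOt. It ranged from 8.62 to 14.2 CPM (median 11.8) in PBS-control, from 7.302 to 16.8 (median 11.8) in STZ-control, from 10.8 to 18.1 (median 15.8) in PBS-cKOt and from 13.996 to 24.6 (median 15.9) in STZ-cKOt kidneys. In STZ mice the difference was 0.53 ± 0.13 (adjusted p = 0.00308), with all 9 STZ-cKOt kidneys above the STZ-control median. In PBS mice it was 0.28 ± 0.13 (adjusted p = 0.124). Of the 50-base windows of Gbp7 12.8% occur in other genes.

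Among the genes of peptide processing on chromosome 17, Tap1, a subunit of the peptide transporter, rose with STZ by 0.46 ± 0.09 in control (adjusted p = 5.57e-04) and 0.41 ± 0.09 in cKOt mice (adjusted p = 0.00202). Psmb8, a catalytic subunit of the immunoproteasome, was lower in cKOt. It averaged 9.49 ± 1.83 CPM in PBS-control and 7.44 ± 1.05 in PBS-cKOt kidneys (-0.35 ± 0.10, adjusted p = 0.00859). In STZ mice it averaged 11.3 ± 1.56 CPM in STZ-control and 8.54 ± 0.955 in STZ-cKOt kidneys (-0.40 ± 0.10, adjusted p = 0.0027). Psmb9, its partner subunit, passed the test in no comparison, and the annotated ends of Psmb9 and Tap1 overlap on opposite strands (chr17:34181987-34187764 and chr17:34187553-34197225).

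Cxcl10, a chemokine that draws activated T cells, was the one gene of the set with non-overlapping groups in 3 comparisons. Cxcl10 (chr5:92346638-92348889) ranged from 3.31 to 7.19 CPM (median 5.29) in PBS-control, from 7.89 to 12.8 (median 8.87) in STZ-control, from 2.902 to 4.61 (median 3.46) in PBS-cKOt and from 5.05 to 7.17 (median 5.87) in STZ-cKOt kidneys. STZ-control kidneys thus lay above all kidneys of the other groups, and STZ-cKOt kidneys spanned levels seen in PBS-control kidneys. It rose with STZ by 0.89 ± 0.13 (adjusted p = 4.64e-06) in control and 0.70 ± 0.13 (adjusted p = 2.85e-04) in cKOt mice. It was lower in cKOt, with differences of -0.52 ± 0.13 (adjusted p = 0.0034) in PBS and -0.70 ± 0.12 (adjusted p = 3.46e-05) in STZ mice.

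**Figure D3:**
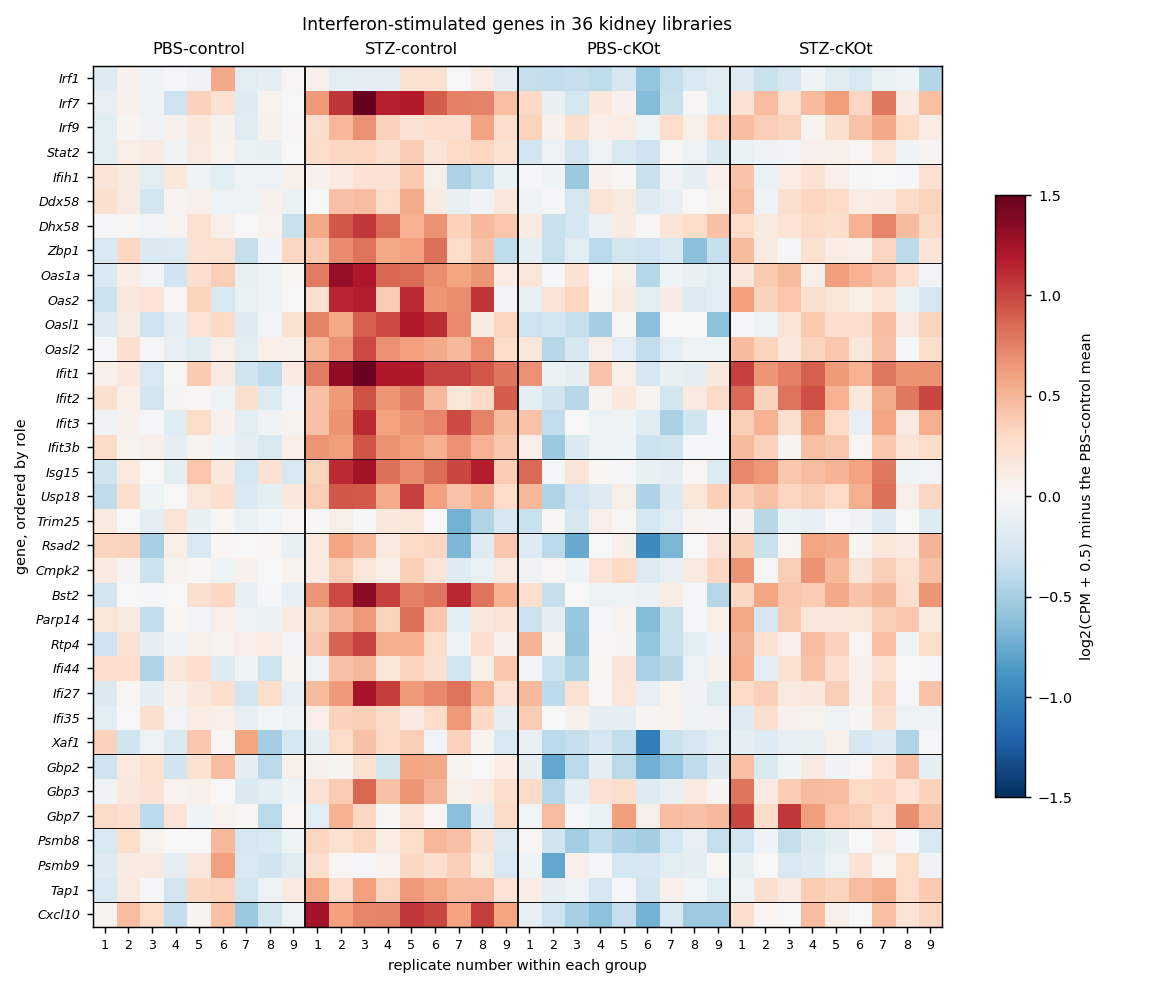
Log2(CPM + 0.5) minus the PBS-control mean (colour) of the 35 tested genes (rows, by role) in the 36 kidneys (columns, by group and replicate number). STZ-control columns are red in most rows and STZ-cKOt columns are paler. PBS-cKOt columns are blue for Irf1, Zbp1, Xaf1, Gbp2, Psmb8 and Cxcl10, among others.

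The level of the set differed within groups as well. The mean over the 35 genes of log2(CPM + 0.5), relative to PBS-control, lay between -0.121 to 0.140 in PBS-control, -0.350 to 0.0827 in PBS-cKOt, 0.204 to 0.717 in STZ-control and 0.142 to 0.351 in STZ-cKOt kidneys. All STZ-control and STZ-cKOt kidneys therefore lay above the PBS-control maximum. STZ-control 3 was the highest kidney of its group for 16 of the 35 genes (45.7%, against 5.69% of all tested genes), and STZ-control 9 the lowest for 15 (42.9%, against 14.96% of all tested genes). PBS-cKOt 1, one of the libraries apart, was the highest of its group for 18 genes (51.4%, against 28.4% of all tested genes). Per kilobase of exon, Trim25 (16.9 CPM per kb) and Ifi27 (16.3) were the most abundant in PBS-control kidneys, Ifit3 (9.998) and Bst2 (9.96) came next, and Oas3 (0.0393) was last.

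Whether the response to STZ itself differed between genotypes was tested as an interaction. No gene of the set passed it with edgeR, and 7 of all tested genes did (0.0448%). The lowest adjusted p of the set was 0.273, for Ifi27, whose response to STZ in cKOt minus that in control mice was -0.52 ± 0.15 (95% interval -0.82 to -0.23). Before adjustment 11 of the 35 genes had p under 0.05, and in 10 of them the response was smaller in cKOt mice. Without STZ-control 2 these were 10 genes and without the 4 libraries apart 7, all with the smaller response in cKOt mice. These were Ifi27, Oas2, Bst2, Irf7, Ifit1, Oas1a, Dhx58, Isg15, Ifi35 and Irf9, while Gbp2 had the larger response in cKOt (0.38 ± 0.18). The share of all tested genes with an unadjusted p under 0.05 was not counted, so the unadjusted counts have no background beside them. With limma voom 9 genes and with DESeq2 11 had an unadjusted p under 0.05, and neither called a gene of the set after adjustment. The calls made in 1 genotype and not in the other are thus not shown to differ between genotypes.

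The rest of the interferon pathway was read from lists of other genes. Their counts stand against these shares of all tested genes. With STZ 6.34% were higher and 5.93% lower in control mice, and 6.0% and 5.63% in cKOt mice. In cKOt against control 10.9% were higher and 12.5% lower in PBS mice, and 9.52% and 10.1% in STZ mice. Reads of interferon genes themselves were almost absent. The 10 ligands listed had 30 reads in all over 722.8 M assigned reads, of which Ifng had 25, spread over 17 libraries, and 5 ligands (Ifna1, Ifna4, Ifna5, Ifne and Ifnl2) had 0. A count of 0 allows up to 0.00415 CPM over all libraries and 0.134 to 0.178 CPM in a single one, so a change in ligand mRNA was not detectable at this depth. Among the 11 receptors and signalling proteins listed, Ifngr1, a subunit of the type II interferon receptor, rose with STZ in control mice (0.25 ± 0.064) and in cKOt mice (0.19 ± 0.063). The call in cKOt mice was lost without the 4 libraries apart. In cKOt against control 4 of the 11 were lower and 1 higher in PBS mice, and in STZ mice 1 was lower and 1, Ifngr1, was higher (0 higher without the 4 libraries apart). Il10rb, a subunit shared by the type III interferon and interleukin-10 receptors, was lower in both, with differences of -0.50 ± 0.068 and -0.52 ± 0.068. Of the 16 tested genes that sense nucleic acids upstream of interferon, 3 rose with STZ in control mice and 4 in cKOt mice, among them Adar (0.21 ± 0.05 and 0.17 ± 0.05), which edits double-stranded RNA, and Tmem173 (STING; 0.39 ± 0.11 and 0.39 ± 0.11). Without the 4 libraries apart none of the 16 rose in cKOt mice. Irf5 was lower with STZ in both genotypes, a call lost in control mice without those 4 libraries. None of these 16 passed the test between genotypes with edgeR, where 5 had an unadjusted p under 0.05 in PBS mice and 5 in STZ mice. Of the 7 tested brakes of interferon signalling none passed with STZ (2 had an unadjusted p under 0.05 in control mice and 0 in cKOt mice).

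A second list, 43 interferon-stimulated genes outside the set chosen with earlier results of these data known, moved the same way in control mice. With STZ 22 of 43 were higher (14 without STZ-control 2) and 0 lower there, with a median of 0.28. Examples are Slfn9 (0.86 ± 0.14), Ifitm3 (0.56 ± 0.10), which blocks viral entry, and Lgals3bp (0.82 ± 0.15). In cKOt mice 7 were higher and 0 lower, with a median of 0.24, Slfn9 (0.93 ± 0.15) and the helicase Ddx60 (0.64 ± 0.13) first. Between genotypes 10 were lower and 3 higher in STZ mice, against 10.1% and 9.52% of all tested genes. In PBS mice 8 were lower and 3 higher, against 12.5% and 10.9% of all tested genes. The most firmly called were Parp10 (-0.997 ± 0.085 in PBS and -1.02 ± 0.084 in STZ mice) and Parp9, which was higher (0.55 ± 0.056 and 0.41 ± 0.055).

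A list of genes induced mainly by type II interferon was read in the same way. Of its 18 tested genes, 0 passed the test with STZ in control mice with edgeR (3 had an unadjusted p under 0.05), and 5 rose in cKOt mice, among them Gbp9 (0.52 ± 0.14) and Gbp5 (0.48 ± 0.13). In cKOt against control 8 were lower in PBS mice, led by Ciita (-0.88 ± 0.15), the switch for MHC class II genes, and 4 in STZ mice.

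Of 18 partners in antigen presentation, 5 rose with STZ in control mice, led by the class I genes H2-D1 (0.32 ± 0.066) and H2-K1 (0.30 ± 0.076), and 1 in cKOt mice, H2-Q4, which became 4 without the 4 libraries apart (B2m, H2-D1, H2-K1 and H2-Q4). Between genotypes 9 were lower in PBS mice and 14 in STZ mice, and none was higher. The class II gene H2-Ab1 was lower in both, with differences of -0.57 ± 0.11 and -0.72 ± 0.11. Class II genes are expressed chiefly by dendritic cells, macrophages and B cells.

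**Figure D4:**
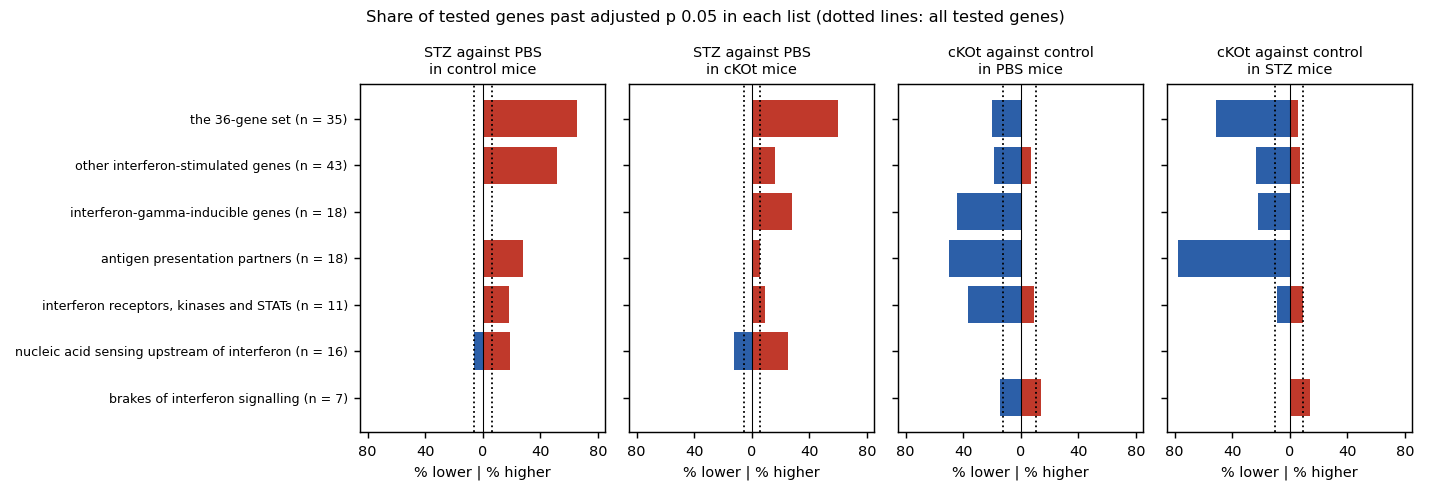
Share of the tested genes of each list (rows, n in brackets) that were lower (blue, to the left) or higher (red, to the right) in the 4 comparisons, in percent, with dotted lines for the shares of all tested genes. The longest red bars belong to the set in the STZ panels and the longest blue bar of the 7 lists drawn, 14 of 18 genes, to antigen presentation in STZ mice.

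Markers of immune cells moved in part with the set. The counts of markers called stand against the same shares of all tested genes as the pathway lists. The summed level of 8 macrophage markers was 95.1 to 113 CPM in PBS-control, 84.5 to 104 in PBS-cKOt, 93.2 to 147 in STZ-control and 78.03 to 96.9 in STZ-cKOt kidneys. With STZ in control mice 3 of the 8 rose, the complement genes C1qb (0.54 ± 0.11), C1qa (0.35 ± 0.11) and C1qc (0.39 ± 0.13). This became 1, C1qb, without STZ-control 2, and 5 without the 4 libraries apart. In STZ mice 5 of 8 were lower in cKOt, among them Csf1r (-0.36 ± 0.071), and in PBS mice 1 of 8, C1qa (-0.35 ± 0.11). With STZ in cKOt mice Csf1r was lower (-0.35 ± 0.071), while the other 7 had higher means in STZ-cKOt than in PBS-cKOt kidneys and did not pass the test. Csf1r made up much of the sum, and the other 7 markers summed to 37.999 to 57.8 CPM in PBS-control, 29.3 to 45.5 in PBS-cKOt, 41.1 to 87.8 in STZ-control and 38.6 to 48.7 in STZ-cKOt kidneys.

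The 3 pan-leukocyte markers Ptprc, Coro1a and Laptm5 summed to 30.1 to 44.5 CPM in PBS-control, 20.7 to 31.1 in PBS-cKOt, 26.3 to 49.4 in STZ-control and 30.5 to 36.7 in STZ-cKOt kidneys. All 3 were lower in cKOt in PBS mice and 2 in STZ mice, and none passed the test with STZ in either genotype with edgeR (0 and 1 had an unadjusted p under 0.05). Markers of T and NK cells summed to 4.53 to 10.4 CPM, 3.298 to 5.704, 5.18 to 10.2 and 4.56 to 7.91 in the same order, and 6 of the 9 were tested. Of these Trac was higher with STZ in cKOt mice, Cd3g lower in cKOt in PBS mice and Cd8a lower in cKOt in STZ mice. Without the 4 libraries apart 3 were lower in PBS mice (Cd3e, Cd3g and Cd8a) and 0 in STZ mice, where 2 were lower without STZ-control 2 (Cd3e and Cd8a). Among 5 markers of conventional dendritic cells Clec9a (-0.91 ± 0.19) and Flt3 (-0.78 ± 0.24) were lower in cKOt in STZ mice and Cd209a (-1.36 ± 0.22) in PBS mice. Zbtb46, the most abundant of the 5, had means of 10.6 CPM in STZ-control and 10.8 in STZ-cKOt kidneys. In PBS mice the 5 summed to 12.6 to 16.6 CPM in control and 10.05 to 14.98 in cKOt kidneys. In STZ mice they summed to 10.95 to 17.2 CPM in control and 11.2 to 17.5 in cKOt kidneys. Summed B cell markers were 1.96 to 3.33 CPM in PBS-control and 0.924 to 2.18 in STZ-cKOt kidneys, and none of the 4 passed the test in any of the 4 comparisons with edgeR, where 2 had an unadjusted p under 0.05 for cKOt against control in STZ mice. Markers of neutrophils and plasmacytoid dendritic cells were low, with Ly6g at 0 in 32 of 36 libraries and Siglech at a mean of 0.211 CPM. The highest mean was 1.02 CPM among the neutrophil markers (Csf3r) and 0.667 CPM among those of plasmacytoid dendritic cells (Cox6a2). Summed neutrophil markers reached 8.84 CPM in STZ-control 2, the library that went against its label, where the median of STZ-control kidneys was 1.46 CPM. The part of these cells in the differences of the set was not tested.

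Proximal tubule markers were far more abundant, with Slc34a1 at a mean of 4554 CPM over all libraries. With STZ 2 of the 8 were lower in control and 3 in cKOt mice, and none rose. Of the 7 endothelial markers none passed with STZ in control mice with edgeR (0 had an unadjusted p under 0.05), and 3 rose in cKOt mice, Cdh5 (0.43 ± 0.12), Tie1 (0.32 ± 0.11) and Pecam1 (0.34 ± 0.12), of which Cdh5 alone was called without the 4 libraries apart. In cKOt against control all 7 had negative differences in PBS mice (median -0.27), of which 1, Cdh5, was called, and 0 were called in STZ mice with edgeR (0 had an unadjusted p under 0.05). Of the 5 fibroblast and mural markers Acta2 rose with STZ in control mice (0.45 ± 0.12), and Pdgfra and Col1a1 rose in cKOt mice (0.46 ± 0.12 and 0.56 ± 0.17). Without the 4 libraries apart Pdgfra alone was called. In cKOt against control 3 of the 5 were lower in PBS mice (Col1a1, Pdgfra and Pdgfrb; median of the 5 -0.27) and 1, Acta2, in STZ mice. None of these calls nor that of Cdh5 in PBS mice was made without the 4 libraries apart. Of the proximal tubule markers 3 of 8, Miox, Slc13a3 and Slc22a6, were lower in cKOt in both PBS and STZ mice. The list was split, as Slc5a12, Slc5a2 and Slc34a1 had higher means in cKOt in both. Slc5a12 went from 264.6 to 291.3 CPM in PBS mice and from 200.2 to 313.0 CPM in STZ mice. Lrp2 and Cubn had lower means in cKOt in PBS mice and higher means in STZ mice.

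**Figure D5:**
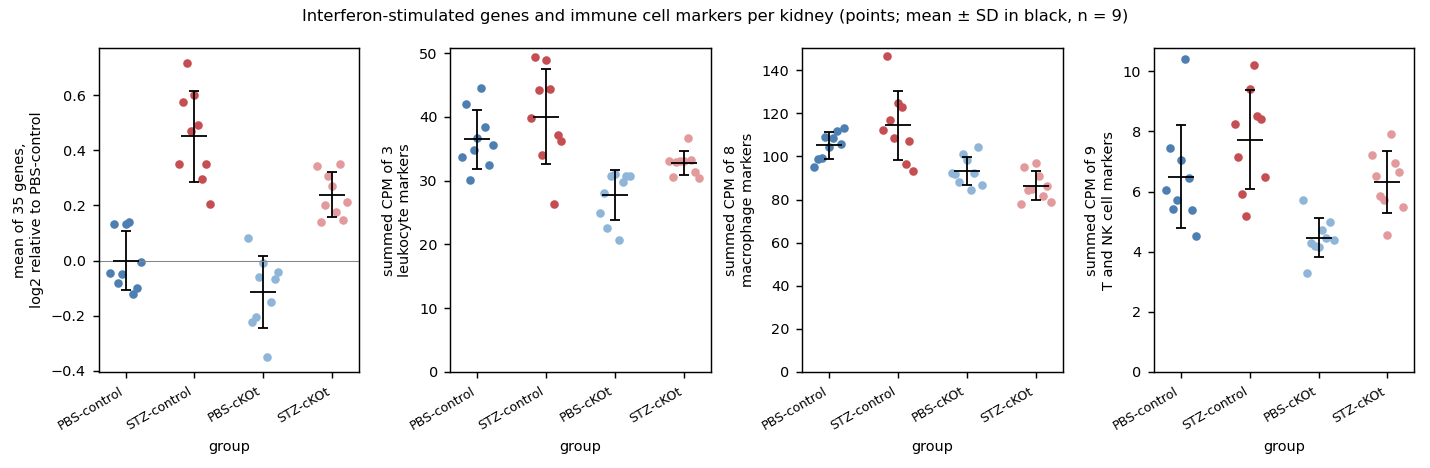
Mean over the 35 genes of log2 level relative to PBS-control (left) and summed CPM of leukocyte, macrophage, and T and NK cell markers in each kidney, by group, with black bars for mean ± SD (n = 9). The set is highest in STZ-control and above PBS-control in all STZ-cKOt kidneys, where the macrophage sum, in which Csf1r has the highest level, is 78.0 to 96.9 CPM against 95.1 to 113 in PBS-control.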

How the data were processed

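Poly(A) RNA libraries from 500 ng of total RNA were made with a stranded kit, per the labels' protocols. The deposited values are whole-number counts of reads per Ensembl gene, 1 file per kidney. HTSeq 0.9.1, STAR 2.5.3a, cutadapt 1.8 and the build GRCm38 come from the submitters' processing notes, and use of strand in counting is not given in the sources used here. Rows that name no gene (5 per file) were left out, of which reads mapped to several places made up 30.9 to 42.8% and reads outside genes 3.64 to 6.38% of each file. Reads of genes with near-identical copies are therefore undercounted. Symbols and positions came from GENCODE M21 and promoters from RefSeq. The genes and all lists were chosen with earlier results of these data known. Counts were fitted with edgeR 4.0.16 (R 4.3.3), with TMM scaling, filterByExpr and 1 mean per group over all 36 libraries. Oas3, which did not pass the filter, was tested by exact permutation with scipy 1.17.1. CPM were computed from the counts. Every gene of the set is named. One result on another listed gene is not reported here. For the other lists up to 3 genes with the lowest adjusted p per list and comparison could be named, and genes named beside a count of 5 or fewer were chosen after their values were seen. Alternatives used DESeq2 1.42.0, limma 3.58.1 and sva 3.50.0. The scripts' calls were tested on simulated data. P-values rest on the spread between 9 animals per group. Library depth of 16.9 M to 22.3 M assigned reads limits genes under 0.134 to 0.178 CPM, the level that a count of 0 allows (3 counts, counting error only).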

Additional observations from a re-analysis of the deposited data

Results flagged for a closer look

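Within the 4 groups, 144 sets of 9 kidneys (36 genes in 4 groups) were examined for a highest or lowest kidney far from the rest, by Dixon's criterion at the 95% level (the gap to the next kidney as a share of the group's range). Of these 11 met it, and chance gives about 1 in 20. PBS-cKOt 1, one of the libraries apart on the second principal component, gave 4 of them, all as the highest of its group. It had 23.5 CPM of Ifit3 (next kidney 17.4), 4.28 CPM of Isg15 (next 2.52), 7.13 CPM of Rtp4 (next 4.99) and 14.4 CPM of Ifi35 (next 11.6). PBS-control 6 was the highest of its group for Irf1, at 26.1 CPM (next 18.2), and for Psmb9, at 7.14 CPM (next 5.06). Ifit3b reached 11.1 CPM in STZ-control 3 (next 9.16) and Gbp3 reached 15.3 CPM in STZ-cKOt 1 (next 12.1). The lowest of their groups were Cmpk2 in PBS-control 3, at 12.2 CPM (next 14.7), Xaf1 in PBS-cKOt 6, at 3.08 CPM (next 5.02), and Psmb9 in PBS-cKOt 2, at 2.41 CPM (next 3.67). What sets these kidneys apart was not tested.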

How the results depend on the processing

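The counts of called genes were recomputed under 45 settings (44 for the interaction), 36 of which left out 1 library. With 1 library left out, the genes called were 22 to 24 for STZ in control mice, 17 to 23 for STZ in cKOt mice, 6 to 7 for cKOt in PBS mice, 16 to 21 for cKOt in STZ mice and 0 for the interaction. The genes higher in cKOt in STZ mice were 1 to 2 there. Under the other settings the counts were 23 to 27, 19 to 24, 5 to 7, 16 to 21 and 0. The genes higher in cKOt in STZ mice were 1 with only the 2 groups compared and 1 without the 4 libraries apart. The genes higher in cKOt in PBS mice were 1 with 2 surrogate variables and 1 without those 4 libraries (Gbp7 in both). The genes lower with STZ in cKOt mice were 1 with 2 surrogate variables (Trim25). Calls kept in every setting were 22 of 23, 17 of 21, 4 of 7 and 14 of 20 in the same order, and no result changed sign past the threshold. Of the single-gene values under alternatives, 7683 kept their side of the threshold, 117 lost the call and 40 gained it. For the 4 comparisons in that order, same-numbered animals correlated over 0.1 in 2, 0, 2 and 4 of 9 pairs. The numbers were therefore not taken to pair animals. With the replicate block 6 genes were called for cKOt in PBS mice, 18 for cKOt in STZ mice, 23 and 21 for STZ in control and cKOt mice, and 0 for the interaction. Of 144 counts over the pathway and marker lists, 6 moved by over 1.5 times without STZ-control 2 and 16 without the 4 libraries apart, settings added for these lists after the data were seen.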
